A study of Mus musculus with 43 samples.

Results

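Cck, Gzmc, Oprl1, Slc5a1 and Fam180a are 5 genes, of the 26264 measured, that were almost silent in control brown adipocyte cultures and present in cultures overexpressing Runx1 or Runx2. They were picked by name for that pattern, so their values in those cultures are a description and carry no test. All 5 were rows of all 6 count tables. The 3 cultures with empty vector held 0 to 2 counts of each gene in all, whereas each gene reached at least 2.11 CPM in every overexpressing library, CPM being counts scaled to a common library size. The genes differed in which factor gave more: Cck, Gzmc and Oprl1 were higher with Runx1, Slc5a1 and Fam180a with Runx2. In a separate set of cultures with as much Runx2 mRNA, labelled full-length Runx2, none of the 5 reached 0.5 CPM.

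The series holds polyadenylated RNA from 43 mouse libraries in 15 groups. Mature brown adipocytes of a line labelled BAT had been wild type with an empty vector, or overexpressing Runx1 or Runx2, with 3 libraries each (32401897 to 50447009 counts). A second table held BAT cultures of the knockout control, the Runx1 knockout, the Runx2 knockout and the double knockout of Runx1 and Runx2, with 3 libraries each. Another table held BAT cultures with full-length Runx2 or with Runx2 from which a stretch labelled IDR was deleted, with 2 libraries each (32852772 to 33837558 counts). Every culture had been taken through brown adipocyte differentiation. Inguinal white fat (iWAT) came from mice with floxed Runx1 or floxed Runx2, without or with Adipoq-cre. Under the label HFD there was fat of wild-type mice and of Runx1 knockouts, again with 3 libraries per group. Adipoq-cre acts in adipocytes, and fat tissue also holds immune, vascular and stromal cells that keep the gene. The labels do not say how Runx2 was delivered in either set of cultures, whether a group is 1 clone, or the age and sex of the mice. Nor do they state that libraries of a group are independent cultures or mice. The p-values therefore measure the spread between libraries, which may be technical.

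RUNX1 and RUNX2 are DNA-binding proteins that pair with CBFB and recognise the short motif TGTGGT. RUNX1 is known from blood cell formation and RUNX2 from bone formation, and neither is a defining factor of brown fat. Cck, Gzmc, Oprl1 and Slc5a1 do not belong to the usual programme of an adipocyte. Cck encodes cholecystokinin, a peptide hormone of gut endocrine cells and brain neurons. Gzmc encodes granzyme C, a serine protease of the granules of cytotoxic lymphocytes. Oprl1 encodes the receptor for the neuropeptide nociceptin, which couples to inhibitory G proteins. Slc5a1 encodes SGLT1, which carries glucose into cells of the gut and kidney together with sodium. Fam180a encodes a small protein of little known function.

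The promoters of the 5 genes were searched for the RUNX letters TGTGGT because the genes appeared together when a RUNX factor was raised. The windows run from 250 bases before to 50 bases after the RefSeq start on build GRCm38.p6, which is another build than the mm39 of the deposited counts. All 5 genes matched, with 7 windows in all, since Oprl1 has several starts. TGTGGT, on either strand, stood in windows of 2 of the 5 genes, Gzmc and Oprl1. Across all 32851 windows of this length 16.8% held it. The related letters TGCGGT were in none of the 7 windows, against 6.45% of all windows. The AP-1 letters TGANTCA were in the window of Fam180a, against 7.81% of all windows. The Cck and Slc5a1 windows held none of the 3 motifs, which says only that these letters are not there. Below, matches to the motifs are in capitals and the rest is in lower case, 5′ to 3′ along the gene.
Gzmc (chr14:56234608-56234907, minus strand): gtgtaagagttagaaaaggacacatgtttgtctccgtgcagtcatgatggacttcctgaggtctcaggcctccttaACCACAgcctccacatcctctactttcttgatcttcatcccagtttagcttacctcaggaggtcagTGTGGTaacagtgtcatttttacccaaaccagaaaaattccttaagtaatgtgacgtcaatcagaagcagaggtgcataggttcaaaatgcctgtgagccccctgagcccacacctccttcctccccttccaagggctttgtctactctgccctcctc
Oprl1 (chr2:181715440-181715739, plus strand): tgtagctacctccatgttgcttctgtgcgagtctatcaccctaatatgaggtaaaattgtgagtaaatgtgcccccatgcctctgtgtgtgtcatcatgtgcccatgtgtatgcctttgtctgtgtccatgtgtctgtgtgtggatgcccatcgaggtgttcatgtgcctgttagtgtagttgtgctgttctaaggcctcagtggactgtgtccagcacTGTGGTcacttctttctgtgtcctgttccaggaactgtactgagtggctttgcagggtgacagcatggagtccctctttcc
Fam180a (chr6:35326092-35326391, minus strand): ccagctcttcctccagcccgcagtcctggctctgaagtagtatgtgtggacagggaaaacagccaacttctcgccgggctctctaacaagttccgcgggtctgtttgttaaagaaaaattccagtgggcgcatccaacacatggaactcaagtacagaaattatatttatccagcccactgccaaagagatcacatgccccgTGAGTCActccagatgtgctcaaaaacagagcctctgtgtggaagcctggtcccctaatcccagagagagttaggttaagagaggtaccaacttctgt
In Gzmc the matches begin 174 bases before the start, on the reverse strand as ACCACA, and 108 bases before it, as TGTGGT. In Oprl1 the match begins 31 bases before the most downstream of its annotated starts. In Fam180a the AP-1 match TGAGTCA begins 48 bases before the start. A match of letters is a description and shows no binding.

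Runx1 mRNA was at 73.9 ± 10.5 CPM in the Runx1 cultures and Runx2 mRNA at 309 ± 25.8 CPM in the Runx2 cultures (SD, n = 3), against 5.57 ± 1.23 and 8.77 ± 0.892 CPM with vector. The cultures given Runx2 also held more Runx1 mRNA, at 30.3 ± 2.03 CPM. CPM were scaled by TMM within a table, a method that corrects library totals for a few dominant genes. Of the values between 1 and 19, 71.1 to 81.9% were even in a library, as when each mate of a fragment adds a count. If mates were so counted, the counting intervals given here are too narrow. A limit of 3 counts for a gene with none would then be too low, and a fold against it too high. The intervals also pool the counts of a group, so they cover counting error alone and not the spread between libraries. The genes they are given for were picked for few counts with vector and presence with a factor. Folds against vector and their intervals use those same values, so they can be inflated by the choice. They are a description and test nothing. That the groups of these genes were apart from vector was likewise largely set by the choice. How many of all genes had groups apart in these cultures was not counted, so nothing is read from it. A signature of 9 cardiac muscle genes set apart 3 libraries. Its sum was 115 and 456 CPM in vector replicates 1 and 2, and Runx1 replicate 3 reached 1741 CPM. The remaining libraries had 0.964 to 1.85 CPM.

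Cck, the gut and brain hormone gene, reached the highest level of the 5 genes in any culture. Its CPM were 0, 0 and 0.05 with vector, 45.1, 45.6 and 26.2 with Runx1, and 16.2, 14.1 and 12.4 with Runx2. The groups did not overlap, and the lowest Runx1 library was the replicate with cardiac transcripts; without it the Runx1 mean was 45.3 CPM. From 2 counts in all vector libraries, the count ratio of Cck to vector was 1972 with Runx1 (95% exact counting interval 545 to 16285). With Runx2 the ratio was 700.4 (194 to 5788). Both ratios describe the values Cck was picked on. The mean with Runx1 was 39.0 ± 11.1 CPM and that with Runx2 14.2 ± 1.87 CPM (SD, n = 3), 2.74 times lower.

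Gzmc, the lymphocyte protease gene, had no count in any vector library. Its CPM were 17.8, 24.7 and 13.3 with Runx1 and 3.27, 2.67 and 2.11 with Runx2. Every Runx1 library lay above every Runx2 library, and the lowest Runx1 value was again that of replicate 3. A floor of 3 counts was set over the vector group, with each count taken as a fragment. Against it Gzmc was at least 622-fold higher with Runx1 and at least 86.9-fold higher with Runx2. The means were 18.6 ± 5.73 and 2.68 ± 0.582 CPM (SD, n = 3), a ratio of 6.93.

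Oprl1, the nociceptin receptor gene, was the steadiest of the 5 between the Runx1 libraries. It had 0, 0.0671 and 0 CPM with vector, 20.6, 22.9 and 21.1 CPM with Runx1, and 7.36, 8.86 and 8.58 CPM with Runx2. There was no overlap between any of the 3 groups. The count ratio to vector was 1078 (298 to 8905) with Runx1 and 416 (115 to 3436) with Runx2. Mean levels were 21.6 ± 1.16 and 8.26 ± 0.797 CPM (SD, n = 3), so Oprl1 was 2.61 times higher with Runx1.

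Slc5a1, the sodium and glucose carrier gene, showed the opposite order. With vector it had 0.0659, 0 and 0 CPM, with Runx1 2.91, 3.32 and 3.80 CPM, and with Runx2 19.9, 25.9 and 19.6 CPM. Every Runx2 library lay above every Runx1 library. Against vector the count ratio was 166 (45.7 to 1377) with Runx1 and 1076 (297 to 8886) with Runx2. The Runx2 mean of 21.8 ± 3.55 CPM was 6.53 times the Runx1 mean of 3.34 ± 0.442 CPM (SD, n = 3).

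Fam180a, of little known function, also had more counts with Runx2. Its CPM were 0.0659, 0 and 0 with vector, 4.59, 4.91 and 3.72 with Runx1, and 10.7, 13.0 and 10.5 with Runx2. Again the groups were apart. The count ratio to vector was 221 (61.0 to 1833) with Runx1 and 565 (156 to 4669) with Runx2, and the means of 4.41 ± 0.619 and 11.4 ± 1.38 CPM (SD, n = 3) differed 2.59 times.

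**Figure D1:**
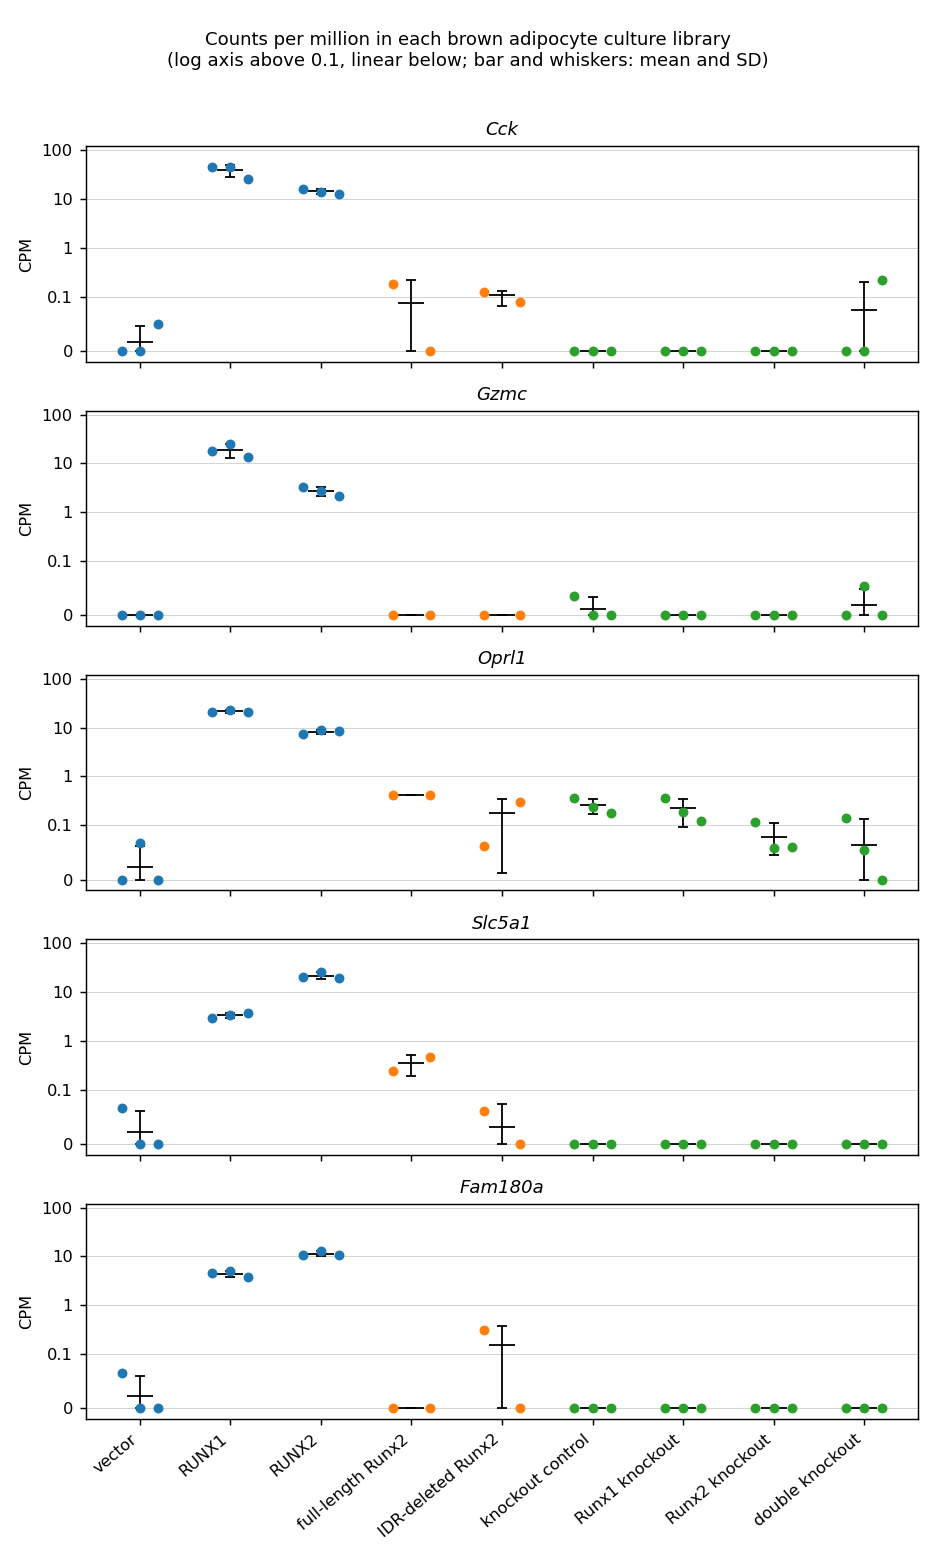
CPM of the 5 genes (vertical axis, logarithmic above 0.1 and linear below) in each of the 25 culture libraries, 1 point per library, with the group mean as a bar and the SD as whiskers. The Runx1 and Runx2 libraries lie between 2.11 and 45.6 CPM, and every other culture library lies under 0.5 CPM.

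Expressed as log2 differences fitted in edgeR, Runx2 minus Runx1 cultures, the values were -2.80 (SE 0.27) for Gzmc, -1.45 (SE 0.22) for Cck, -1.38 (SE 0.21) for Oprl1, 1.37 (SE 0.28) for Fam180a and 2.71 (SE 0.25) for Slc5a1. The mRNA of the 2 factors rose to unlike levels in the 2 sets of cultures, so the kind of factor and its amount cannot be told apart. To compare levels between genes, CPM were divided by exon length (RPKM, lengths from GENCODE M21). With Runx1 the order was Cck at 29.8 ± 8.48 RPKM, Gzmc at 20.8 ± 6.41, Oprl1 at 5.74 ± 0.310, Fam180a at 2.74 ± 0.385 and Slc5a1 at 0.814 ± 0.108 RPKM (SD, n = 3). Cck and Gzmc overlapped, with libraries from 20.1 to 34.9 and from 14.9 to 27.6 RPKM. With Runx2 Cck still led, at 10.9 ± 1.43 RPKM, followed by Fam180a at 7.11 ± 0.862, Slc5a1 at 5.32 ± 0.866, Gzmc at 3.00 ± 0.651 and Oprl1 at 2.20 ± 0.212 RPKM. Gzmc thus moved from the second place to the fourth, and its libraries overlapped there with no other gene than Oprl1.

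A fixed rule placed the 5 genes among all others that behaved in this way: at most 3 counts summed over the vector libraries and at least 1 CPM in each of the 3 libraries of a factor. It took 42 genes with Runx1 and 61 with Runx2, 81 in all, and all 5 genes under both factors. With Runx1, Cck ranked first and Oprl1 second by mean CPM, followed by the predicted gene Gm8300 (19.8 ± 1.23 CPM) and Wnt7b (18.7 ± 1.15 CPM), a secreted WNT ligand, with Gzmc in the fifth place. Fam180a and Slc5a1 were at places 15 and 18. With Runx2, Col6a5, a collagen VI chain, led at 69.4 ± 7.96 CPM (SD, n = 3), with Slc5a1 in the second place, Gdf6 (14.2 ± 1.98 CPM), a ligand of the bone morphogenetic protein family, in the third, and Cck in the fourth. Fam180a stood at place 6, Oprl1 at 11 and Gzmc at 28. Of the 81 genes 30 had the higher mean with Runx1, as Cck, Gzmc and Oprl1 did. Leaving out a library can only add genes under this rule. Without vector replicate 3, the deepest vector library, it took 65 with Runx1 and 102 with Runx2, among them all 42 and all 61.

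**Figure D2:**
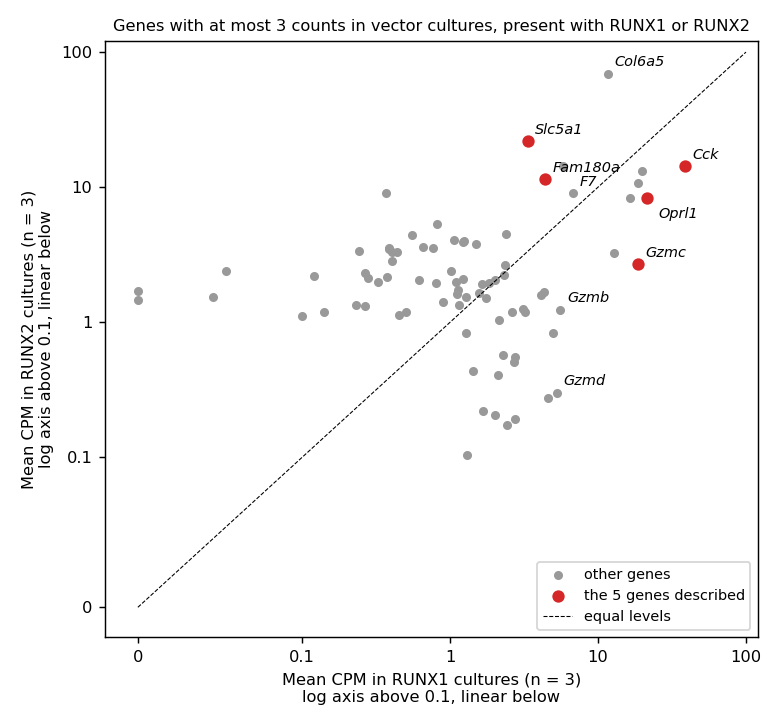
Mean CPM in the Runx1 cultures (horizontal) and Runx2 cultures (vertical) of the 81 genes with at most 3 counts in the vector libraries and at least 1 CPM in every library of a factor (both axes logarithmic above 0.1 and linear below; n = 3 libraries per mean). Cck, Gzmc and Oprl1 lie below the dashed line of equal levels and Slc5a1 and Fam180a above it.

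The letters TGTGGT were in the promoter windows of 15 of the 64 switched-on genes that have a RefSeq window, or 23.4%, beside 16.9% of the 19526 genes of the tables that have one. TGCGGT was in 4 of the 64, or 6.25%, beside 8.45%. The AP-1 letters were in 8, or 12.5%, beside 8.44%. These shares were not tested.

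Cck is cut from a prohormone, and the genes of that pathway were read from a list of 12 receptors and processing enzymes. In the table with vector, Runx1 and Runx2, 54% of tested genes were called at edgeR quasi-likelihood adjusted p below 0.05 with Runx1 (28.2% higher and 25.8% lower) and 60.9% with Runx2 (31.3% higher and 29.6% lower), so a call there is a common event. Of the 6 list genes tested, 2 rose with Runx1, and with Runx2 3 rose and 1 fell. The list medians were log2 0.49 and 0.06, beside 0.06 and 0.03 over all tested genes. Cpe, a carboxypeptidase that trims peptide hormones, rose from 81.7 ± 24.5 CPM to 239 ± 33.3 with Runx1 (log2 1.55, SE 0.19) and 325 ± 18.6 with Runx2 (log2 1.99, SE 0.19). Tpst2, which sulfates tyrosines as in active cholecystokinin, rose by log2 0.94 (SE 0.16) and 0.45 (SE 0.15). The convertase gene Pcsk1 had no count with vector or Runx2 and 0.0535 CPM with Runx1. Neither receptor gene, Cckar or Cckbr, had a count in the 9 libraries. The tables held 13 other gut peptide hormone genes, of which 2 were tested and 0 called.

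Gzmc lies in a cluster of granzyme genes on chromosome 14, and several of these appeared with it. Gzmb, its neighbour, had no count with vector, 5.57 ± 0.821 CPM with Runx1 and 1.24 ± 0.637 with Runx2. Gzmd went from no count to 5.24 ± 1.48 and 0.301 ± 0.0784 CPM, and Gzme from 2 counts in all to 4.93 ± 0.761 and 0.829 ± 0.135 CPM. In all 3 the Runx1 libraries lay above the Runx2 libraries, the order seen in Gzmc. Gzmg reached 0.597 ± 0.0783 CPM with Runx1 and had no count with vector or Runx2. These genes had 0 to 2 counts with vector and passed the filter on low counts through the libraries where they were present, so they had to differ and are given as values with no test. Gzmf, Gzma and Gzmk had no count in the 9 libraries, and Gzmm, which lies elsewhere, fell from 3.54 ± 0.538 CPM by log2 1.29 (SE 0.26) with Runx1.

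Of the list of 16 granzyme and granule genes other than Gzmc, 10 passed the filter, 4 of them in that way, so the list's calls are not counted as support. Among those with more counts in the controls, Srgn, the proteoglycan that packs granule proteases, rose by log2 5.55 (SE 0.67) with Runx2. With Runx1 it rose by log2 1.98 (SE 0.65, edgeR adjusted p = 0.024), a call lost when the compared groups were fitted alone (adjusted p = 0.10). The lysosomal membrane gene Lamp1 rose by log2 0.58 (SE 0.085) and 1.19 (SE 0.085). Ctsc, the protease that activates granzymes, fell with Runx2 by log2 1.01 (SE 0.21). Prf1, the pore former that lets granzymes into target cells, was at 0.0338 and 0.0363 CPM and at 0 with vector. Granzyme transcripts are alike: those of Gzmb, Gzmd, Gzme, Gzmf, Gzmg and Gzmn were 74.2 to 78.8% identical to the Gzmc transcript where aligned. Of all stretches of 50 bases of Gzmc, 3.79% also occur in Gzme, 2.49% in Gzmg and 0.355% in Gzmd, and 0 in Gzmb, Gzmf and Gzmn. How shared reads were counted is not given in the sources used here, so small granzyme counts beside large ones are uncertain.

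**Figure D3:**
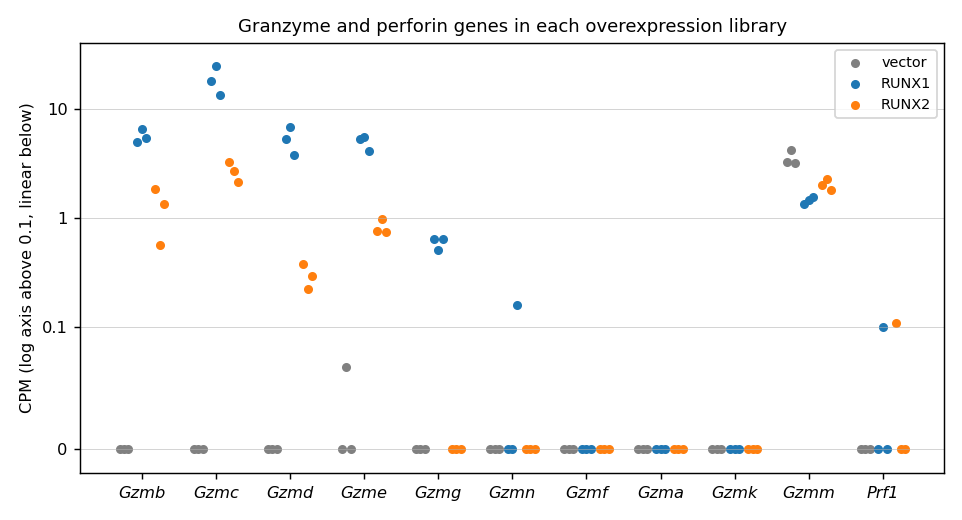
CPM of 10 granzyme genes and Prf1 (vertical axis, logarithmic above 0.1 and linear below) in each vector, Runx1 and Runx2 library, 1 point per library. Gzmb, Gzmc, Gzmd and Gzme are highest in the 3 Runx1 libraries, lower in the 3 Runx2 libraries and at or near 0 with vector, while Gzmm is highest with vector.

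Some markers of lymphocytes were also higher with a factor than with vector, but not all in the order of Gzmc. Over 17 T and NK cell genes the summed level was 0.675 to 1.01 CPM with vector, 5.21 to 6.15 with Runx1 and 3.38 to 4.50 with Runx2. The 4 that passed the filter included Tbx21, a transcription factor of cytotoxic lymphocytes, at 0.011 CPM or 1 count with vector, 2.76 ± 0.768 CPM with Runx1 and 0.191 ± 0.0251 with Runx2. Its relative Eomes was at 0.188, 1.39 and 1.40 CPM and the kinase gene Lck at 0.1, 0.436 and 1.76 CPM. With so few counts in the vector libraries, Tbx21, Eomes and Lck passed the filter through the overexpressing libraries. They are given as values with no test, and the summed levels include them. Of these, Tbx21 had the order of Gzmc, while Eomes was alike under both factors and Lck was higher with Runx2. With Runx1, 8 of the 17 were at 0 in all libraries, and with Runx2 10 of the 17. Gata2 and Hdc, on a list of 8 mast cell and basophil genes, also rose, Gata2 from 1.53 ± 0.650 CPM to 10.5 ± 2.09 and 10.2 ± 0.207 CPM. The 11 markers of gut epithelium and endocrine cells summed to 3.29 to 4.36 CPM with vector, 1.37 to 7.16 with Runx1 and 1.59 to 2.02 with Runx2, and Epcam had no count with vector or Runx1. The 9 neuron markers summed to 24.9 to 33.0 CPM with vector, 31.1 to 94.9 with Runx1 and 45.8 to 55.3 with Runx2. The highest value was in Runx1 replicate 3. At 0 in all libraries of a group were 4 of the 9 with Runx2, and 0 of the 9 with vector or with Runx1. Of the 5 tested, 1 rose with Runx1 and 2 with Runx2, among them the tubulin gene Tubb3 (log2 5.12, SE 0.27, and 4.53, SE 0.26). Under each factor 0 were called lower. The median of the tested markers was log2 2.896 with Runx1 but -1.997 with Runx2, so Tubb3 does not stand for the list with Runx2. The part of other cell types in the levels of the 5 genes was not tested.

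Opioid receptors and peptides were the family list of Oprl1. Of 10 genes 6 were tested, of which 2 rose with Runx1 (median log2 0.15), and 1 rose and 1 fell with Runx2 (median log2 0.23). Pnoc, which encodes the nociceptin precursor and so the ligand of this receptor, and Oprk1, the kappa opioid receptor gene, had no count in the 9 libraries. Ogfr, a growth factor receptor for enkephalin unrelated to the others in sequence, rose from 67.6 ± 2.20 CPM to 119 ± 20.9 with Runx1 (log2 0.82, SE 0.13) and 201 ± 22.3 with Runx2 (log2 1.57, SE 0.13). Penk, the enkephalin precursor gene, had 2 counts with vector and 0.702 ± 0.966 CPM with Runx1. Its highest library at 1.82 CPM was Runx1 replicate 3 with cardiac transcripts. It passed the filter through the overexpressing libraries. Its call with Runx1 (edgeR adjusted p = 0.016), 1 of the 2 on this list, is therefore not counted as support. The call was lost without Runx1 replicate 3 (adjusted p = 0.12), without vector replicate 2 (0.057) and without vector replicate 3 (0.060).

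Slc5a1 was set beside its family and beside the facilitative glucose transporters, which work without sodium. Of 12 other Slc5a genes 5 were tested, and 2 rose and 1 fell under each factor (median log2 0.65 and 1.25). Slc5a7, the choline transporter gene, rose from 0.411 ± 0.251 CPM to 4.27 ± 0.793 with Runx1 (log2 3.34, SE 0.40) and 2.49 ± 0.363 with Runx2 (log2 2.56, SE 0.40). Slc5a3, the inositol transporter gene, fell by log2 0.51 (SE 0.16) and 0.58 (SE 0.16). The Runx1 call was lost in edgeR without vector replicate 1 (adjusted p = 0.082), Runx1 replicate 1 (0.051) or Runx1 replicate 2 (0.072). Slc5a2, the kidney relative SGLT2, was at 0.0089 and 0.0281 CPM. The facilitative carriers went both ways, with 3 of 9 tested higher and 3 lower with Runx1 (median log2 -0.11) and 3 higher and 4 lower with Runx2 (median log2 -0.31). The fat and muscle transporter gene Slc2a4 (GLUT4) fell from 337 ± 1.25 CPM by log2 0.90 (SE 0.094) and 1.84 (SE 0.097), and the widespread Slc2a1 (GLUT1) from 139 ± 23.9 CPM by log2 1.72 (SE 0.14) and 1.54 (SE 0.14). The carriers Slc2a6 and Slc2a10 rose, the latter by log2 1.27 (SE 0.28) and 1.95 (SE 0.28).

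The brown adipocyte programme was low where the 5 genes were present. Its 10 marker genes summed to 795 to 1041 CPM with vector, 152 to 213 with Runx1 and 111 to 131 with Runx2, and 7 of 9 tested fell under each factor. The 9 markers shared by all adipocytes summed to 9137 to 9874 CPM with vector, 7835 to 9642 with Runx1 and 4372 to 5268 with Runx2. Of these 9, 4 fell and 2 rose with Runx1 (median log2 -0.41), and 8 fell with Runx2 (median log2 -1.47).

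The 2 nearest protein-coding genes on either side of each gene were read next, 20 in all, in the order of gene starts in the RefSeq annotation. Of these 14 were tested, of which 8 rose and 2 fell with Runx1 and 7 rose and 2 fell with Runx2. Changed genes are common in this table (54% and 60.9% of all tested), and Gzmb and Myt1 had no count with vector, so nothing is read from these counts. Near Cck, Vipr1, a receptor for vasoactive intestinal peptide, was at 0.167 CPM with vector, 12.9 with Runx1 and 14.3 with Runx2. It too passed the filter through the overexpressing libraries and is given with no test. Trak1, on the other side of Cck, fell by log2 0.63 (SE 0.11) and 0.53 (SE 0.11). Next to Oprl1, Myt1, a zinc finger transcription factor of neurons, went from no count to 2.63 ± 0.347 and 1.19 ± 0.422 CPM. Beside Slc5a1, the matrix protein gene Spon2 rose by log2 1.96 (SE 0.23) and 3.06 (SE 0.23), and Ywhah, an adaptor protein gene, by log2 0.84 (SE 0.089) and 1.33 (SE 0.089). Beside Fam180a, the sulfate transporter gene Slc13a4 rose by log2 2.97 (SE 0.15) and 1.85 (SE 0.14). No exon of another annotated gene overlapped an exon of the 5 genes in GENCODE M21.

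The genes with the most similar profile over these 9 libraries were found by Pearson correlation of log2(CPM + 0.5) among 12070 genes. The points share the design, so a high value is a description. For Cck they were Asphd2 (r = 0.999), the osteocalcin gene Bglap2 (0.998) and the heparan sulfate proteoglycan gene Sdc1 (0.996). For Gzmc they were the sialyltransferase gene St6galnac4 (0.995), the nuclear import gene Kpna2 and the histone gene H2ac8 (both 0.994). For Oprl1 they were Tpgs2 (0.997), the sorting receptor gene Sorcs2 (0.996) and the adhesion receptor gene Adgrf5 (0.995). Slc5a1 was most like the Ras regulator gene Rasa3 (0.999), BC034090 and Fam167a (both 0.997). Fam180a was most like the Ral activator gene Ralgds (0.998), Gdf6 (0.998) and Nkd2 (0.997), an inhibitor of WNT signalling.

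The separate cultures with full-length Runx2 held 294 ± 0.885 CPM of Runx2 mRNA (SD, n = 2), close to the 309 ± 25.8 CPM of the Runx2 overexpressing cultures, but almost none of the 5 genes. The 2 libraries had 6 and 0 counts of Cck, 14 and 14 of Oprl1, 8 and 16 of Slc5a1, and no count of Gzmc or Fam180a. In CPM the means were 0.0885 ± 0.125 for Cck, 0.412 ± 0.00159 for Oprl1 and 0.353 ± 0.165 for Slc5a1 (SD, n = 2). If each count is a fragment and 3 counts are the limit that 0 allows, Gzmc and Fam180a were under 0.0441 CPM. The Runx2 overexpressing libraries lay at 12.4 CPM or more for Cck, 7.36 or more for Oprl1 and 19.6 or more for Slc5a1, so no library of the 2 sets came near the other. The tables were scaled separately and share no control, so the values stand side by side with no test. The 5 genes were picked on the overexpressing cultures, which can by itself put them higher there.

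Most other switched-on genes were also near 0 there. Of the 61 genes switched on with Runx2, 24 had no count in either full-length library, and 1 was at 1 CPM or more in both. That gene was F7, which encodes coagulation factor VII, named here after its values were seen, with 9.09 ± 1.70 CPM in the Runx2 overexpressing cultures (SD, n = 3) and 4.59 ± 0.232 in the full-length cultures (SD, n = 2). The median of the 61 means was 2.39 CPM in the former and 0.0293 CPM in the latter. These genes were chosen for 1 CPM or more in every Runx2 overexpressing library, so lower values elsewhere are partly set by the rule. The same shares over all genes were not counted, so nothing is read from these counts or medians. Col6a5, the leading gene at 69.4 CPM, had no count in the full-length libraries. Other genes differed between the sets too, among them Runx1 at 30.3 ± 2.03 against 8.21 ± 0.240 CPM, the lipid droplet gene Cidea at 0.153 ± 0.148 against 132 ± 4.73 CPM, and the matrix protease gene Mmp2 at 289 ± 26.8 against 0.529 ± 0.0812 CPM. The stress-response gene Fosb was at 180 ± 10.6 against 1.06 ± 0.0791 CPM and the interferon-induced gene Oasl2 at 175 ± 11.7 against 2.06 ± 0.590 CPM. Brown adipocyte markers summed to 651 to 706 CPM in the full-length cultures. The part of Runx1, of the construct, of its timing or of the state of the cells in this difference was not tested.

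**Figure D4:**
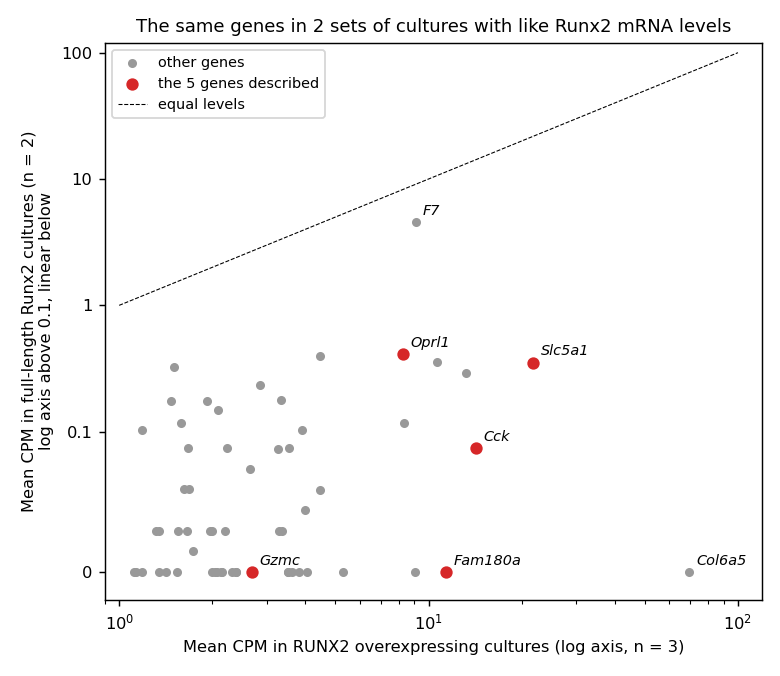
Mean CPM of the 61 genes switched on with Runx2, in the Runx2 overexpressing cultures (horizontal, logarithmic, n = 3) and in the full-length Runx2 cultures of another table (vertical, logarithmic above 0.1 and linear below, n = 2). All genes lie below the dashed line of equal levels, F7 is highest on the vertical axis at 4.59 CPM, and Gzmc, Fam180a and Col6a5 lie at 0. The genes were chosen for their level on the horizontal axis, which partly sets their place below the line.

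Deleting the stretch labelled IDR from Runx2 could be tested on 1 of the 5 genes, since the others had too few counts to pass the filter. The IDR-deleted libraries held 4 and 3 counts of Cck, 2 and 10 of Oprl1, 2 and 0 of Slc5a1, 10 and 0 of Fam180a and none of Gzmc. Oprl1 was at 0.181 ± 0.169 CPM against 0.412 ± 0.00159 with full-length Runx2 (log2 -1.16, SE 0.78, edgeR adjusted p = 0.54; 0.28 to 0.99 over the alternatives), a difference that did not pass the test. The share of all tested genes called was 3.91%. With no filter, Slc5a1 had an unadjusted p below 0.05 but an edgeR adjusted p of 0.24, lower with the deletion. Of the 81 switched-on genes 5 were tested here, where 2.4% of all tested genes were lower, and F7 fell to 1.66 ± 0.349 CPM (log2 -1.46, SE 0.27, edgeR adjusted p = 0.00047). Their median was log2 -1.16, the value of Oprl1 itself, beside 0.00 over all tested genes. Spn, another of the 5, went the other way (log2 0.90, SE 0.64). Apart from F7 these genes were under 1 CPM and could pass the filter through the group where they were higher. Nothing is read from the median. Counts of Runx2 were themselves lower with the deletion, at 129 ± 20.2 CPM. An mRNA that lacks a stretch can also give fewer counts. Runx1 mRNA was lower too, at 3.85 ± 0.651 CPM against 8.21 ± 0.240 with full-length Runx2 (SD, n = 2). The deletion and the amount of mRNA of either factor therefore cannot be told apart.

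The cultures labelled as knockouts were read next. No difference in the targeted mRNA passed the test there. Runx1 was at 5.24 ± 2.62 CPM in controls and 5.43 ± 1.13 in the libraries labelled Runx1 knockout, and Runx2 at 7.71 ± 1.28 and 7.61 ± 0.956 in those labelled Runx2 knockout (SD, n = 3). In the double knockout they were at 4.72 ± 1.55 and 7.55 ± 1.39 CPM. A deletion of part of a gene can leave its mRNA, so total counts do not check these labels, and directions below rest on the labels alone. Of the 5 genes, 0 passed the filter on low counts in the 12 knockout-table libraries, so 0 were tested. The share of genes called there was 0.435% for the Runx1 knockout, 0.184% for the Runx2 knockout and 15.3% for the double knockout. Slc5a1 and Fam180a had no count in any of the 12 libraries. Gzmc had 1 count in a control library and 2 in a double knockout library, and Cck 8 counts in 1 double knockout library. Oprl1 alone had counts in most libraries: 10, 8 and 6 in the controls, 12, 6 and 4 in the libraries labelled Runx1 knockout, 4, 2 and 2 in those labelled Runx2 knockout, and 4, 2 and 0 in those labelled double knockout. The controls at 0.26 ± 0.0908 CPM did not overlap with the Runx2 knockouts at 0.0790 ± 0.0338 or the double knockouts at 0.0645 ± 0.0704 CPM (SD, n = 3), on counts of 12 or fewer. How many of all genes had groups that did not overlap was not counted, here or in the fat below, so nothing is read from it. With no filter the lowest edgeR adjusted p of the 5 genes in these comparisons was 0.28.

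In inguinal fat Slc5a1 had no count in the 12 libraries of the floxed mice and, under the HFD label, 2, 2 and 0 counts in wild type and none in knockouts. The targeted mRNA was at 32.1 ± 9.34 CPM in Runx1-floxed controls and 21 ± 0.410 in knockouts, for Runx2 at 9.89 ± 5.42 and 4.32 ± 2.22, and for Runx1 under the HFD label at 14.4 ± 5.0 and 11.7 ± 3.09 (SD, n = 3), and none of these differences passed the edgeR test with all libraries. Runx1 in the Runx1-floxed mice passed in DESeq2 (adjusted p = 0.029) and in edgeR without control replicate 1 (log2 -0.77, adjusted p = 0.046). None of the 5 genes passed the edgeR test with all libraries in the 3 comparisons. These comprised 9 tests, of which 4 had an unadjusted p below 0.05. Of all tested genes 25.1%, 20.6% and 8.5% had one in the Runx1, Runx2 and HFD comparisons. The share of all tested genes called was 7.48% in the Runx1 knockout, 0% in the Runx2 knockout and 2.11% in the knockout labelled HFD. DESeq2 called 950 genes in the Runx2 knockout, where edgeR called 0 and 3206 had an unadjusted p below 0.05, and none of the 5 was among the DESeq2 calls. In bulk tissue, fewer cells of a type and less RNA per cell cannot be told apart.

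Fam180a had the highest CPM of the 5 in the floxed mice, and its knockout mean was below its control mean in each of the 3 comparisons. In the Runx1-floxed controls it was at 8.0, 5.6 and 9.53 CPM and in the Runx1 knockouts at 4.96, 4.27 and 3.85 CPM. The groups did not overlap, but the difference of log2 -0.82 (SE 0.27) missed the threshold (edgeR adjusted p = 0.090; 0.030 to 0.28 over the alternatives). DESeq2 called it (adjusted p = 0.030), and so did edgeR without control replicate 2 (log2 -1.01, adjusted p = 0.042). In the Runx2-floxed controls the values were 6.46, 8.90 and 4.42 CPM and in the Runx2 knockouts 3.49, 4.37 and 3.20 CPM (log2 -0.84, SE 0.32, edgeR adjusted p = 0.23; 0.011 to 0.56 over the alternatives). Under the HFD label wild-type fat had 0.845, 1.68 and 0.627 CPM and knockout fat 0.304, 0.289 and 0.236 CPM (log2 -1.91, SE 0.62, edgeR adjusted p = 0.24; 0.16 to 1.00 over the alternatives).

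Gzmc was present in fat with lymphocyte markers. In the Runx1 table its CPM were 0.724, 0.577 and 0.770 in controls and 1.29, 0.215 and 0.271 in knockouts, which overlapped (log2 -0.22, SE 0.77, edgeR adjusted p = 0.88). In the Runx2 table they were 2.53, 4.51 and 1.42 in controls and 1.94, 1.94 and 1.77 in knockouts, again with overlap (log2 -0.59, SE 0.44, edgeR adjusted p = 0.43). Under the HFD label 1 wild-type library had 7 counts and the other 5 had none. The 17 T and NK cell genes summed to 1012 to 1384 CPM in Runx1 controls and 1034 to 1342 in knockouts, and to 832 to 2222 and 618 to 879 in the Runx2 table. In the HFD table they summed to 275 to 611 in wild type and 79.0 to 109 in knockouts. All 17 had counts in every group of fat. Their part in the Gzmc level was not tested.

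Oprl1 was at 0.990, 1.20 and 0.506 CPM in the Runx1-floxed controls and at 0.239, 0 and 0.163 CPM in the Runx1 knockouts, with no overlap. The difference of log2 -2.74 (SE 0.99), on at most 56 counts in a library, did not pass (edgeR adjusted p = 0.11; 0.11 to 0.26 over the alternatives). In the Runx2 table the groups overlapped, at 0.526, 0.258 and 0.559 against 0.657, 0.254 and 0.200 CPM (log2 -0.28, SE 0.61, edgeR adjusted p = 0.80). Cck was under 0.6 CPM in every library but 2 of HFD wild type, at 1.18 and 1.15 CPM. It was at 0.0956, 0.0430 and 0.305 CPM in Runx2 controls and 0.478, 0.185 and 0.514 CPM in Runx2 knockouts, which overlapped (log2 1.40, SE 0.79, edgeR adjusted p = 0.32; 0.043 to 0.64 over the alternatives). Under the HFD label it did not pass either (log2 -0.66, SE 0.82, edgeR adjusted p = 0.97).

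The Runx2 results rest on control replicate 3. That library had 57953 CPM of 9 adipocyte markers, against 23710 and 25768 in the other 2 controls and 54082 to 67768 in the knockouts, and 7224 CPM of skeletal muscle markers, against 49.5 and 77.9. Without it edgeR called 6354 genes, among them Runx2 itself (log2 -1.55, adjusted p = 0.010), Fam180a (log2 -1.05, adjusted p = 0.011) and Cck (log2 2.45, adjusted p = 0.043). Among the Runx1-floxed mice, 1 control and 2 knockout libraries had 7061 to 16357 CPM of skeletal muscle markers, and the others had 15.4 to 226 CPM. The part of tissue makeup in these differences was not tested.

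**Figure D5:**
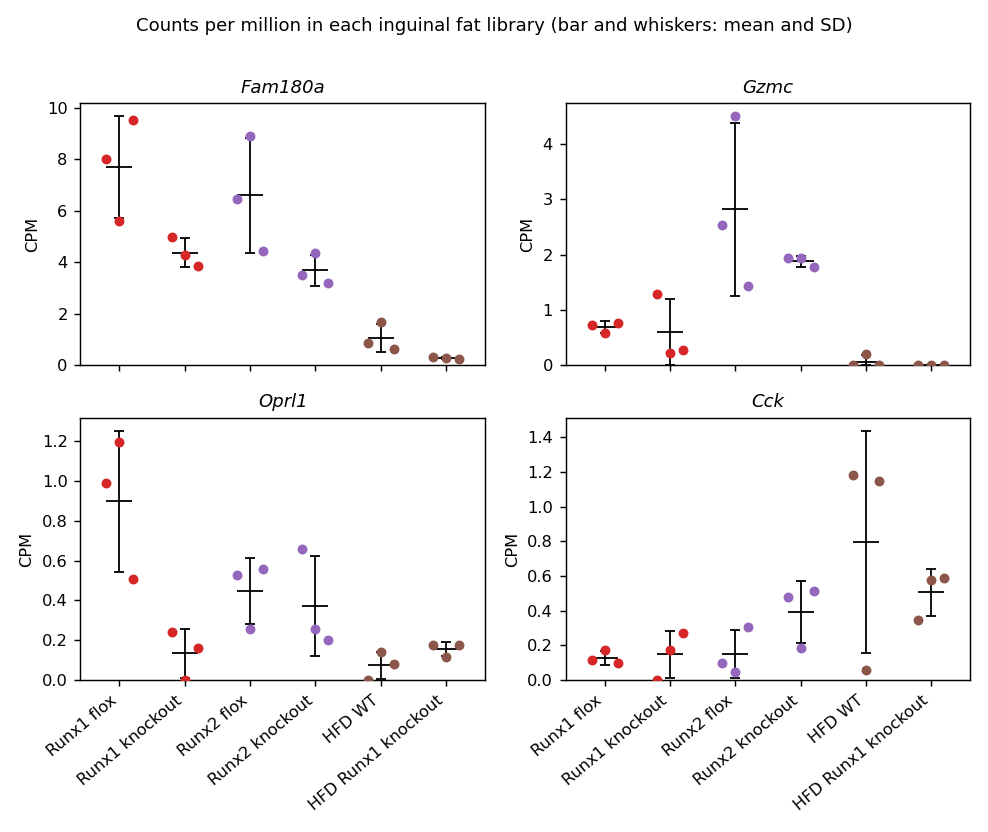
CPM (linear axes from 0) of Fam180a, Gzmc, Oprl1 and Cck in each of the 18 inguinal fat libraries, 1 point per library, with the group mean as a bar and the SD as whiskers. Fam180a and Oprl1 are apart in the Runx1 table, Fam180a is just apart in the Runx2 table (4.42 against 4.37 CPM), and Gzmc and Cck overlap in both.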

How the data were processed

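RNA-seq libraries were used in the 15 groups given by the labels. Reads were trimmed with fastp, aligned to mm39 with STAR and counted with featureCounts, per the submitters' processing notes; options and versions are not given in the sources used here. The 6 deposited tables give a raw count for each gene symbol and library. Totals ran from 28092201 to 52171378 per library. The 2 deposited gene lists and their 10 per-sample columns were not used.

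Each table was fitted alone in edgeR 4.0.16 under R 4.3.3 (filterByExpr, TMM, robust quasi-likelihood test, all groups of the table, Benjamini-Hochberg adjustment over all tested genes, called at adjusted p below 0.05). The fit was also run on simulated counts with the same relative spread for every gene. That setting is simpler than the data, so the run is no check of the tests given here. The members, the gene lists and the tests were chosen with earlier results of these data known. Members had no test in the table they were chosen on. The SE of a log2 difference came from the F statistic. Counting intervals are exact at 95%, and for members against vector they are a description only.

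Beside the 5 genes, those named are Runx1 and Runx2, the 3 most alike genes of each, the 4 highest switched-on genes of each factor, called list genes (up to 4 per list by adjusted p) and the 2 nearest coding neighbours on either side. Other genes named, such as Cidea, Mmp2, Fosb, Oasl2 and the uncalled genes of a list, were chosen after their values were seen. The list for Fam180a held Fam180b, which is not among the table symbols. Replicate numbers gave no consistent sign of pairing: no comparison had a correlation of deviations over 0.1 in every pair. Single pairs reached 0.194 in the double knockout cultures, 0.33 in Runx1 and 0.415 in Runx2 knockout fat, and others went down to -0.265. The check therefore does not settle whether samples were paired. Alternatives were DESeq2 1.42.0 scaling or testing, raw totals, testing every gene, a replicate block, the compared groups alone, other limits for switched-on genes, and each library left out. Promoters are from RefSeq. Python 3.11.15 with matplotlib 3.10.9 drew the plots.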

Additional observations from a re-analysis of the deposited data

Results flagged for a closer look

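The Oprl1 means differed in opposite directions in the Runx1 knockouts of 2 kinds of inguinal fat, and neither difference passed a test. The knockout mean minus the control mean was -0.764 CPM in the Runx1-floxed table, where all 3 knockout libraries lay below the controls' mean. It was 0.0827 CPM under the HFD label, where all 3 knockout libraries lay above the wild-type mean, on 3 to 8 counts where any were present; Oprl1 was not tested there and the groups overlapped. The difference between the 2 effects was not tested, and the tables were scaled separately.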

How the results depend on the processing

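The alternative limits for switched-on genes are looser than the main ones, so they can only add genes. The number moved from 42 to 72 with Runx1 and from 61 to 108 with Runx2 at a minimum of 0.5 CPM, and to 82 and 139 when up to 10 counts were allowed in the controls. Leaving out 1 library, which likewise can only add genes, gave 42 to 65 and 61 to 102 genes. With 1 library of the IDR table left out, 1 switched-on gene was called lower with the deletion each time. Scaling by raw library totals raised the median of all genes from log2 0.06 to 0.18 with Runx1 and from 0.03 to 0.23 with Runx2, and put Oprl1 at 0.414 in place of 0.412 CPM in the full-length cultures. Cck was at 0.05 CPM with vector when the 3 libraries with cardiac transcripts were left out, from 1 vector library. The log2 differences of Runx2 minus Runx1 cultures kept their sign without each library.

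Counts of called genes moved more; the cause was not tested. Leaving out 1 library gave 6710 to 8489 calls with Runx1 (7912 with all), 7841 to 8559 with Runx2 (8928), 3912 to 6793 between them, 242 to 1214 for the IDR deletion (512), 4 to 28 for the Runx1 knockout cultures (59), 0 to 9 for the Runx2 knockout cultures (25), 1050 to 3584 for the double knockout (2070), 99 to 1381 for Runx1 knockout fat (1189), 0 to 6354 for Runx2 knockout fat (0) and 120 to 394 for HFD fat (318). DESeq2 called 184, 156, 2258, 950 and 554 in the Runx1 and Runx2 knockout cultures and the Runx1, Runx2 and HFD fat tables, and called Fam180a in Runx1 knockout fat (log2 -0.83, adjusted p = 0.030). A fit of the compared groups alone gave 195, 105 and 379 in the Runx1, Runx2 and double knockout cultures. With the replicate number as a block, calls were 32 and 12 in the Runx1 and Runx2 knockout cultures, 744 in Runx1 knockout fat and 206 in HFD fat. Whether the numbers pair the samples is not known, and no member gained or lost a call.

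Leaving out 1 library turned the sign of Gzmc in Runx1 knockout fat (log2 -1.50 to 0.18) and of Oprl1 in Runx2 knockout fat (-0.96 to 0.020). Fam180a ranged from -1.01 to -0.64 in Runx1 and from -1.05 to -0.56 in Runx2 knockout fat, and Cck from 0.95 to 2.45 in the latter. It also turned Runx1 in the Runx1 (-0.23 to 0.49), Runx2 (-0.12 to 0.61) and double knockout cultures (-0.44 to 0.29), and Runx2 in the Runx2 (-0.12 to 0.13) and double knockout cultures (-0.16 to 0.12), none of them called. Few counts limit the 5 genes outside the overexpressing cultures: 10 of their 35 tests against a control could be fitted.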
